A study of Mus musculus with 12 samples.

Results

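Ethanol feeding was compared with the isocaloric control diet in the livers of WT mice, which are 6 of the 12 samples of the study. The members were chosen by the labels alone, as 3 ethanol-fed and 3 control-fed WT livers, and all genes of the deposited table were used. The mice were adult males of the C57BL/6 strain. WT here means littermates that carried floxed *Ahr* alleles (Ahr fl/fl) without detectable Cre, so both diet groups carried the floxed alleles and neither had lost AhR in hepatocytes. For several weeks the ethanol group received the Lieber-DeCarli liquid diet, in which ethanol supplies part of the calories, and the control group received a liquid diet of equal calories without ethanol, both ad libitum. The other 6 samples, from *Ahr* HKO mice, which lack AhR in hepatocytes, entered only the filter on low counts and the scaling of library sizes.

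Ethanol reaches the liver through the portal vein and is oxidized in hepatocytes to acetaldehyde and then to acetate, mainly by alcohol and aldehyde dehydrogenases and by the microsomal enzyme CYP2E1. This oxidation consumes NAD and generates reactive oxygen species. Hepatocytes carry several transcription factors that respond to such conditions, among them NRF2 for oxidants and electrophiles, ATF4 for amino acid shortage and protein stress, SREBP2 for sterol levels, and the nuclear receptors CAR, PXR and PPARα for drugs and fatty acids. The liver of male mice differs from that of females in many genes under the pulsatile pattern of growth hormone. The gene lists below follow these pathways and the other main functions of the liver.

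The table held 24532 genes, of which 14038 passed the filter on low counts, and 46306518 to 58186730 reads were counted on genes in each of the 6 WT libraries. Levels are in CPM, read counts relative to the TMM-scaled library total, as the mean ± SD of 3 livers, and changes are log2 FCs of ethanol over control ± SE. Genes whose adjusted *P* value in the quasi-likelihood test of edgeR was under 0.05 were called. The summed level of 7 hepatocyte markers was 77099 to 88352 CPM on the control diet and 82112 to 111863 CPM on ethanol, and the 5 markers of pancreatic acinar cells had no count in any of the 6 livers. Ethanol liver 2 stood apart in markers of other liver cells. It had the highest level of the 6 livers in 12 of 12 Kupffer cell markers and in 12 of 13 markers of sinusoidal endothelial cells. Because the tissue was analysed whole, fewer cells of a type and less RNA per cell cannot be told apart.

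Of the 14038 tested genes, 1224 were called, which is 8.72%. Ethanol livers had higher expression of 595 of them, 4.24% of all tested genes, and lower expression of 629, 4.48%. The median log2 FC of all tested genes was 0.01. Of the 1856 tested genes in the 59 gene lists described here 311 were called, and the other 913 called genes belonged to no list. The share of called genes that were higher was 48.6%, and it was 73.6% when library totals were used without TMM factors, which moved the median log2 FC of all tested genes to 0.15. Without control liver 1, 2 or 3 the calls numbered 440, 360 and 388, and without ethanol liver 2 they numbered 771. The *P* values measure the spread between these livers, 3 a group. Full separation of ethanol from control livers was frequent and by itself says little about a single gene. It was seen in 4612 of the 14038 genes, with ethanol on the upper side in 2279 and on the lower side in 2333. Where it is reported below, it describes the levels and does not replace a call.

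**Figure D1:**
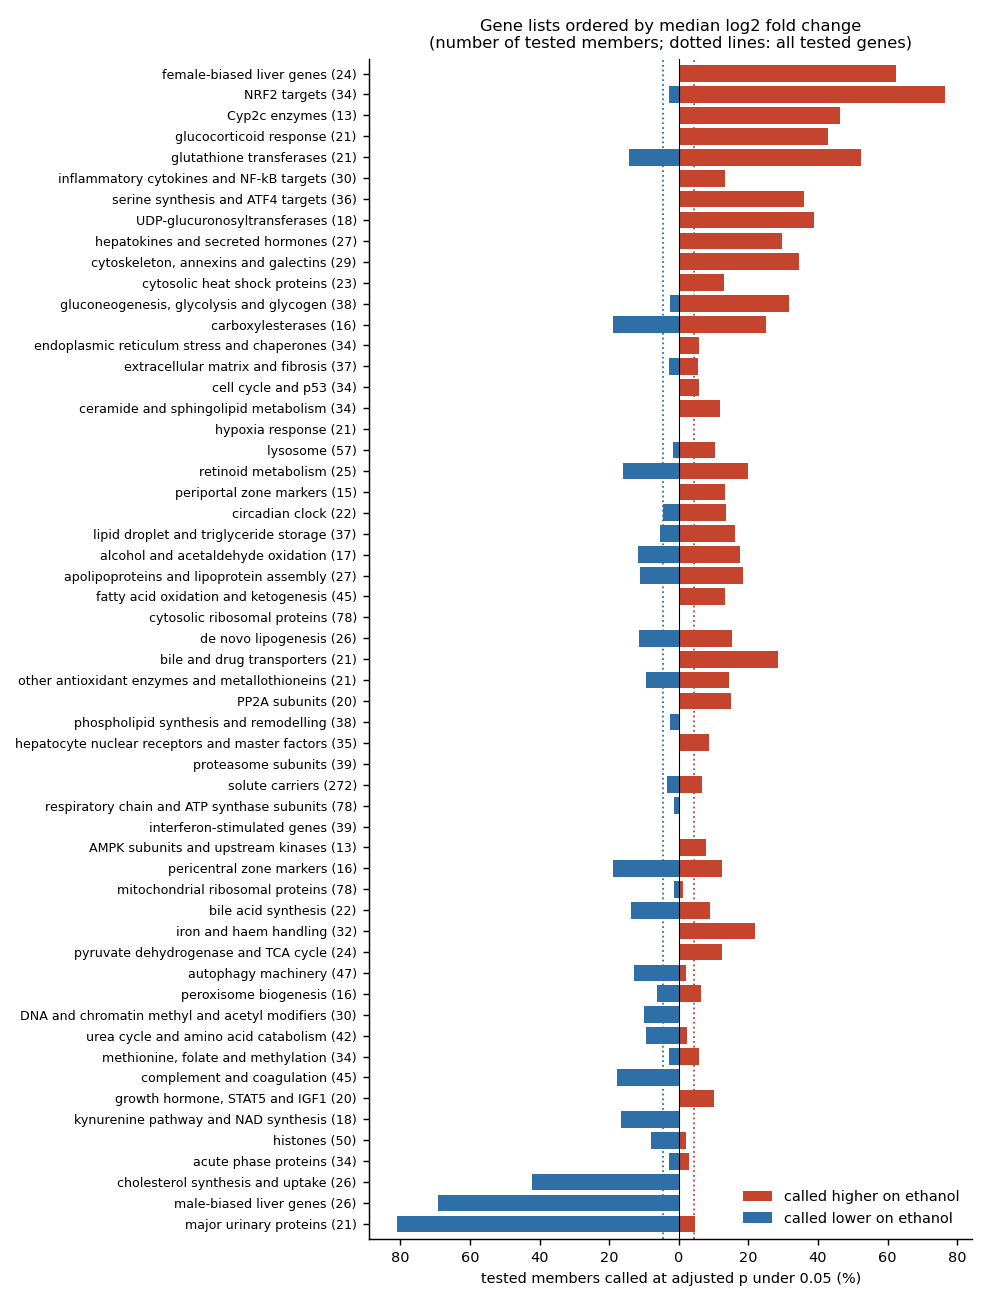
Share of the tested members of each gene list that were called higher (red, to the right) or lower (blue, to the left) on ethanol, in percent, for lists with at least 13 tested members, ordered from the largest median log2 FC at the top to the smallest at the bottom. Dotted lines mark the shares among all 14038 tested genes, 4.24% higher and 4.48% lower. NRF2 targets reached 76.5% higher and the major urinary proteins 81.0% lower.

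Reads shifted between a small number of abundant liver genes. The 8 called genes that gained the most reads without overlap between the groups were *Gstm1*, *Cyp2a5*, *Ftl1*, *Sepp1*, *Cyp2c29*, *Pck1*, *Fth1* and *Adh1*. They encode a glutathione transferase, a pair of cytochromes P450, both ferritin chains, selenoprotein P, the first committed enzyme of gluconeogenesis and the main alcohol dehydrogenase of the liver. Albumin (*Alb*) was not called, but its gain in CPM was larger than that of any of these 8 genes. *Alb* was at 58073, 49730 and 60675 CPM on the control diet and at 90556, 66318 and 81929 CPM on ethanol. *Cyp2a5* (Entrez 13087, chromosome 7, 26835339 to 26843264) was at 461, 224 and 460 CPM in the control livers and at 3846, 3720 and 3562 CPM in the ethanol livers, a log2 FC of 3.28 ± 0.294 (adjusted *P* = 0.00213). The ethanol livers were close to each other and the groups did not overlap. The 8 genes that lost the most reads were *Mup7*, *Gm2083*, *Serpina1e*, *Mup14*, *Mup1*, *Apoa1*, *Mup15* and *Mup8*, which hold 5 named major urinary protein genes, an α1-antitrypsin gene and the main apolipoprotein of HDL. *Serpina1e* (Entrez 20704, chromosome 12, 103946931 to 103956897) was at 12882, 12711 and 12283 CPM on the control diet and at 1467, 573 and 1074 CPM on ethanol, 12.2-fold lower. The *Mup*, *Serpina1* and *Cyp2a* genes have near-identical copies, so the split of reads among them is uncertain.

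NRF2 targets had the largest share of members that rose among the 59 lists. NRF2, encoded by *Nfe2l2*, is released from KEAP1 by oxidants and electrophiles and induces enzymes that make glutathione, conjugate electrophiles and supply NADPH. Of 34 tested targets, 26 rose and 1 fell, a share of 76.5% against 4.24% of all tested genes, with a median log2 FC of 1.38 against 0.01. Together they took 0.932%, 0.837% and 0.813% of all counts in the control livers and 2.43%, 2.34% and 2.00% in the ethanol livers. When control liver 2 was removed, the number that rose was 17, and without any other liver it was between 20 and 25.

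Promoters of the NRF2 targets are shown because the members moved together and the letters that NRF2 is known to bind could be searched in them. The RefSeq table of GRCm38 promoters, 250 bases before to 50 bases after each start, held a window for 29 of the 34 tested targets and for 11127 of the 14038 tested genes. The motif TGACNNNGC on either strand was found in 11 of those 29 targets (37.9%), against 16.7% of all tested genes, 19.8% of the called genes that were higher and 12.9% of those that were lower. Among the called targets it stood in 7 of 22 windows (31.8%). Other lists held it too, in 10 of 30 windows of the ATF4 list (33.3%), 4 of 17 of cholesterol synthesis (23.5%), 3 of 19 of the female-biased genes (15.8%) and 1 of 17 of the male-biased genes (5.88%). In called cholesterol genes, which fell, it stood in 4 of 8. Windows of 4 targets that rose are printed 5′ to 3′ with the match in capitals. They lie at chr2:152105274-152105573 on the plus strand for *Srxn1*, chr14:118706170-118706469 on the minus strand for *Abcc4*, chr9:86695865-86696164 on the minus strand for *Me1* and chr10:82858956-82859255 on the plus strand for *Txnrd1*, and these genes were chosen after their values and motifs were seen.
Srxn1: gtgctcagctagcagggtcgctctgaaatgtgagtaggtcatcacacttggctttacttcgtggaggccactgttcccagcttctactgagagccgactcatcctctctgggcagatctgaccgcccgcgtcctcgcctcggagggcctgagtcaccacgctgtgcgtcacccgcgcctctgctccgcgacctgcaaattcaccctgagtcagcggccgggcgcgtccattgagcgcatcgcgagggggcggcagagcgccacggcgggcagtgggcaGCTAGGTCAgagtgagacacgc
Abcc4: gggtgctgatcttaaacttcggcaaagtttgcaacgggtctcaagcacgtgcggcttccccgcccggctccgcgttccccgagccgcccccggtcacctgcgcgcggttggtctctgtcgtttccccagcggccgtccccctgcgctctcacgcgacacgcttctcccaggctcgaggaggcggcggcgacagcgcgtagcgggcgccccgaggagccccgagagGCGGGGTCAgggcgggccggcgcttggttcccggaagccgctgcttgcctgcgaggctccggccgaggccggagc
Me1: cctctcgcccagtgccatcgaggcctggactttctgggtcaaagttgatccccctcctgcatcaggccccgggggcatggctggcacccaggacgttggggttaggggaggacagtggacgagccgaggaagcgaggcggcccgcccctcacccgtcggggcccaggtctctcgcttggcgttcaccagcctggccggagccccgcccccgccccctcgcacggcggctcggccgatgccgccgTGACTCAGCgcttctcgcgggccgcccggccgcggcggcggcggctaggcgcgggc
Txnrd1: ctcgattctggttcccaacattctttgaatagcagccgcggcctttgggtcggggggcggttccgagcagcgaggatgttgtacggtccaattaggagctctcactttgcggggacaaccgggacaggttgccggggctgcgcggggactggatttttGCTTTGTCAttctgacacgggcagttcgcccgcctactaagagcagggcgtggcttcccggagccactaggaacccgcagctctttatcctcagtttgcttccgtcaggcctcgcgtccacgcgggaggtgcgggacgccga

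The match began 6 bases before the start in *Me1*, 25 before it in *Abcc4*, 92 before it in *Txnrd1* and 28 after it in *Srxn1*. *Srxn1*, whose enzyme repairs oxidized peroxiredoxins, was at 27.1, 28.1 and 31.6 CPM on the control diet and at 176, 115 and 107 CPM on ethanol (log2 FC 2.19 ± 0.201, adjusted *P* = 0.0022). *Abcc4* (Entrez 239273, chromosome 14, 118482692 to 118707856), an exporter of conjugated bile acids and drugs, was at 2.03, 1.64 and 2.29 CPM on the control diet and at 105, 90.5 and 49.6 CPM on ethanol, a 41.1-fold difference. *Me1*, which makes NADPH from malate, rose from 78.6 ± 16.9 to 226 ± 47.9 CPM, and *Txnrd1*, the cytosolic thioredoxin reductase, from 102 ± 8.21 to 168 ± 1.1 CPM. In each of these 4 genes every ethanol liver was above every control liver. A match of the letters is a description of the window and shows no binding.

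Among the other targets, *Gclc*, the catalytic subunit of the rate-limiting enzyme of glutathione synthesis, rose from 149 ± 48.6 to 477 ± 34.5 CPM (log2 FC 1.68 ± 0.232, adjusted *P* = 0.00877). Its modifier subunit *Gclm* was not called (log2 FC 0.30, adjusted *P* = 0.162). *Hmox1*, which degrades haem, was at 20.2, 15 and 22.8 CPM on the control diet and at 83.4, 57.3 and 42.7 CPM on ethanol, with no overlap. *Nfe2l2* itself rose less, from 57.2 ± 6.7 to 89.4 ± 11.2 CPM, and *Keap1* had a log2 FC of 0.20 and was not called. *Slc7a11*, the cystine carrier that feeds glutathione synthesis, had no read in any control liver and 0.566, 0.461 and 0.239 CPM on ethanol, at least 7.02-fold higher when 3 counts per library are taken as the limit of detection. *Gstp1* was the only tested target that was called lower, with a log2 FC of -0.62 ± 0.129, and the call was lost whenever a liver was removed.

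**Figure D2:**
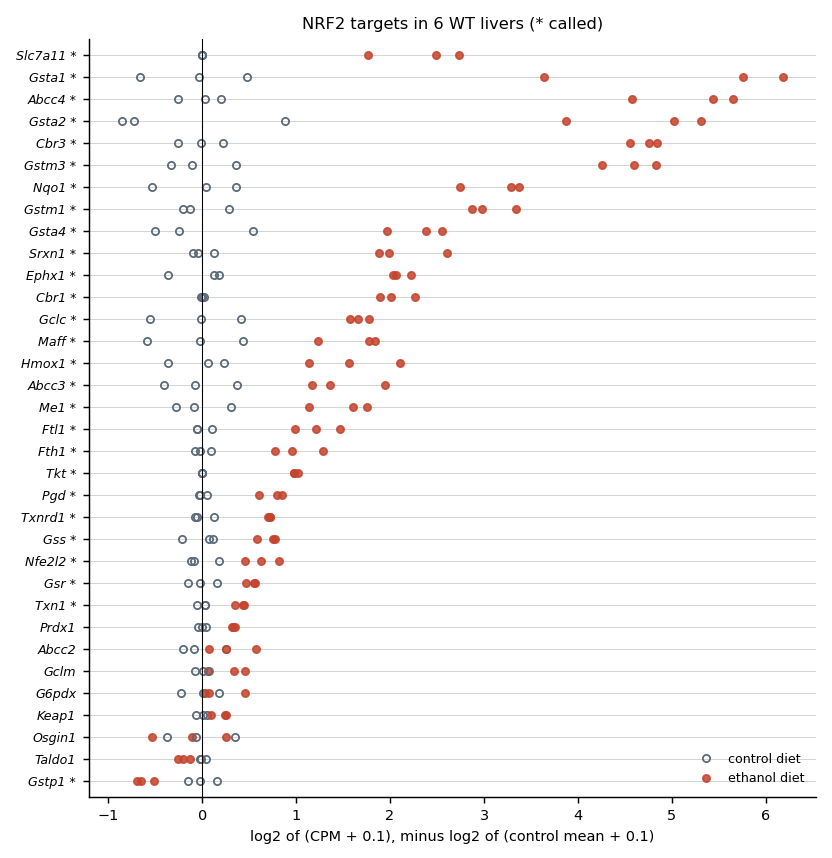
Each of the 34 tested NRF2 targets (rows) in the 6 WT livers, as log2 of CPM plus 0.1 relative to the mean of the control livers (x axis). Open points are control livers, red points are ethanol livers and an asterisk marks a called gene. From *Slc7a11* down to *Txn1* the red points lie right of all open points.

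Enzymes of drug metabolism rose in several families, and members of the same family also moved in opposite directions. Of 21 tested glutathione transferases, 11 rose and 3 fell. *Gstm1* (Entrez 14862, chromosome 3, 108012250 to 108017973) was at 760, 570 and 542 CPM on the control diet and at 6330, 4914 and 4553 CPM on ethanol, and its neighbour *Gstm3* (chromosome 3, 107963696 to 107969174) was at 25.4, 15.7 and 18.3 CPM and at 567, 480 and 381 CPM. Both rose with no overlap, 8.44-fold and 24-fold. *Gsta1* rose from 0.962 ± 0.402 to 49.3 ± 32.9 CPM, with 13.1 CPM in ethanol liver 3 and 57.5 and 77.3 CPM in the other ethanol livers. The members that fell were *Gstp1*, *Gstp2* and *Gstk1*, the mitochondrial and peroxisomal class kappa enzyme, with log2 FCs of -0.62, -0.67 and -0.40. *Gsta1* and *Gsta2*, like *Gstp1* and *Gstp2*, are near-identical, and their single values are uncertain. In the fit lacking control liver 1 or 3, or without ethanol liver 2, 0 transferases were called lower, and without control liver 2 or ethanol liver 3 it was 1.

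CAR (*Nr1i3*) and PXR (*Nr1i2*) are nuclear receptors that sense drugs and bile acids and induce *Cyp2b*, *Cyp2c*, *Cyp3a* and *Ugt* genes. *Nr1i3* rose from 93.7 ± 8.81 to 155 ± 5.32 CPM (log2 FC 0.72 ± 0.1, adjusted *P* = 0.00877) and *Nr1i2* from 66.9 ± 0.342 to 92 ± 2.91 CPM (log2 FC 0.46 ± 0.0789, adjusted *P* = 0.0168). Of 13 tested *Cyp2c* enzymes 6 rose and 0 fell, with a median log2 FC of 1.37. *Cyp2c29* (Entrez 13095, chromosome 19, 39287044 to 39330713) was at 380, 274 and 303 CPM on the control diet and at 4979, 1805 and 3086 CPM on ethanol, and *Cyp2c37* rose from 198 ± 9.65 to 713 ± 220 CPM. The ethanol livers spread more widely than the control livers in *Cyp2c29*, but the lowest of them was above every control liver.

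Of 18 tested UDP-glucuronosyltransferases, which attach glucuronic acid to bilirubin, hormones and drugs, 7 rose and 0 fell. *Ugt1a1*, the bilirubin enzyme, rose from 302 ± 56 to 684 ± 181 CPM, and *Ugt1a9* from 17.2 ± 5.89 to 220 ± 75.3 CPM, although the *Ugt1a* genes share their last exons and reads can be split between them. Without control liver 2 or 3 the number of transferases that rose was 3. *Cyp3a59* was the only called member of 6 tested *Cyp3a* enzymes (log2 FC 1.83 ± 0.299), and the number was 0 without control liver 2 or 3 and 3 without control liver 1. In the *Cyp2d* enzymes 2 of 8 fell, *Cyp2d9* by 1.08 and *Cyp2d12* by 1.11 on the log2 scale, and neither was called without control liver 1 or 2. Of 8 tested sulfotransferases *Sult2a8* and *Sult1b1* fell and 0 rose, and 0 fell without control liver 1. Of 16 tested carboxylesterases, which hydrolyse esters of drugs and lipids, 4 rose, 3 fell and 9 were not called. *Ces1c*, *Ces1d*, *Ces1g* and *Ces2g* rose, and *Ces3a*, *Ces3b* and *Ces4a* fell. The calls of the members that rose were the less stable, with 0 of 4 without control liver 2 or 3 or without ethanol liver 1 or 2. *Ces3b* was at 581, 802 and 693 CPM on the control diet and at 66.4, 92.5 and 152 CPM on ethanol.

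Among bile and drug transporters, several exporters of drugs and conjugates rose, while the main bile acid carriers were not called. Of 21 tested transporters 6 rose and 0 were called lower. However, 7 log2 FCs were negative, and in 2 transporters every ethanol liver was below every control liver. The lowest log2 FC was -5.39, in a transporter that was not called. Besides *Abcc4*, *Abcc3* rose from 132 ± 36 to 382 ± 112 CPM (log2 FC 1.53 ± 0.262), and *Abcb1a*, the drug efflux pump P-glycoprotein, from 1.83 ± 0.524 to 11.7 ± 4.53 CPM. The bile salt export pump *Abcb11* had 498 ± 52.3 and 585 ± 27 CPM (adjusted *P* = 0.267), and the bile acid uptake carrier *Slc10a1* had 692 ± 18.3 and 735 ± 122 CPM (adjusted *P* = 0.754). When control liver 2 or 3 was removed, the number that rose was 2, and without ethanol liver 1 or 3 it was 3.

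Enzymes of ethanol oxidation did not move in a common direction. Of 17 tested members 3 rose and 2 fell. *Adh1* was at 1467, 1294 and 1293 CPM on the control diet and at 2538, 2778 and 2457 CPM on ethanol (log2 FC 0.94 ± 0.13, adjusted *P* = 0.00875). *Aldh1a1*, a cytosolic aldehyde dehydrogenase, rose from 764 ± 104 to 1454 ± 318 CPM. *Aldh2*, the mitochondrial enzyme that clears most acetaldehyde, had 2397 ± 82.5 and 2743 ± 76.7 CPM and was not called (adjusted *P* = 0.361). *Cyp2e1* fell, with 7746, 7607 and 6682 CPM on the control diet and 4126, 4291 and 4177 CPM on ethanol (log2 FC -0.81 ± 0.147, adjusted *P* = 0.0204), but its log2 FC was 0.27 by limma on quantile-normalized log2(FPKM + 1), which sets the most abundant genes of each library to the same values. For acetate, *Acss2*, the cytosolic acetyl-CoA synthetase, fell from 199 ± 43 to 77.9 ± 19.6 CPM, and *Acss3*, a mitochondrial one, rose from 4.65 ± 1.3 to 15.6 ± 3.86 CPM. In the fit lacking control liver 2 the list had 1 gene that rose and 1 that fell, and without control liver 1 or 3 it had 1 that fell.

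Most antioxidant enzymes outside the NRF2 list were not called, but the called share of 23.8% was above the 8.72% of all tested genes. Of 21 tested, *Sepp1*, *Gpx4* and *Msra* rose and *Selenbp1* and *Selenbp2* fell, while catalase (*Cat*) had 2542 ± 416 and 2555 ± 70.4 CPM and mitochondrial superoxide dismutase (*Sod2*) had 142 ± 4.02 and 170 ± 15.4 CPM (adjusted *P* = 0.161). *Selenbp2* (Entrez 20342, chromosome 3, 94693573 to 94704406) was at 1597, 1740 and 1573 CPM on the control diet and at 34.9, 27.7 and 45.6 CPM on ethanol, 45.4-fold lower. The metallothionein *Mt1* ranged from 23.3 to 401 CPM within the control livers alone. The 3 genes that rose were called in none of the fits that left out a control liver or ethanol liver 1 or 2. Of 32 tested genes of iron and haem handling 7 rose and 0 fell. *Ftl1* and *Fth1*, the ferritin chains, rose by log2 FCs of 1.24 and 1.02, and *Tfrc*, the transferrin receptor, rose from 6.76 ± 0.57 to 24.4 ± 5.79 CPM. *Hamp*, the iron hormone hepcidin, had a log2 FC of -0.68 and was not called (adjusted *P* = 0.108), whereas *Hamp2*, its copy with female-biased expression, was called higher (log2 FC 3.25 ± 0.8, adjusted *P* = 0.0498). Without control liver 1, 2 or 3 the number of iron genes that rose was 3, 3 and 4.

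Most genes of cholesterol synthesis had negative log2 FCs, and fewer passed the threshold. SREBP2 induces these enzymes when sterols in the endoplasmic reticulum are low. Of 26 tested genes 11 fell and 0 rose, 42.3% against 4.48% of all tested genes, with a median log2 FC of -1.0, and 24 of the 26 values were negative. *Nsdhl* (Entrez 18194, chromosome X, 72918521 to 72958528), a late enzyme that demethylates sterols, was at 105, 125 and 97.7 CPM on the control diet and at 34.4, 11.7 and 26 CPM on ethanol (log2 FC -2.18 ± 0.358, adjusted *P* = 0.0153). *Idi1*, which isomerizes the isoprene unit, was at 155, 209 and 125 CPM and at 60.3, 18.1 and 40.9 CPM, and *Sqle*, the squalene epoxidase, at 52.2, 104 and 78.2 CPM and at 36.1, 11.3 and 20.6 CPM. Ethanol liver 2 was the lowest in all 3 genes, and the groups did not overlap in any of them. *Fdps*, *Dhcr7*, *Hmgcs1*, *Pmvk*, *Mvk*, *Hsd17b7*, *Lss* and *Stard4* also fell, with log2 FCs between -1.66 and -0.87.

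*Srebf2*, which encodes SREBP2 (log2 FC -0.55, adjusted *P* = 0.086), was lower in every ethanol liver than in every control liver and missed the threshold. The count of called members depended on the livers used. It was 5, 1 and 2 without control liver 1, 2 or 3, and 13, 7 and 3 without ethanol liver 1, 2 or 3, while the median log2 FC stayed between -1.16 and -0.83.

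The promoter of *Hmgcs1*, which makes the first intermediate committed to this pathway, holds the letters TCACNCCAC of the sterol element that SREBP2 is known to bind, and was the only one of 17 windows of the list that did, against 1.46% of all tested genes. It lies at chr13:119690101-119690400 on the plus strand, with the match in capitals 137 bases before the start.
Hmgcs1: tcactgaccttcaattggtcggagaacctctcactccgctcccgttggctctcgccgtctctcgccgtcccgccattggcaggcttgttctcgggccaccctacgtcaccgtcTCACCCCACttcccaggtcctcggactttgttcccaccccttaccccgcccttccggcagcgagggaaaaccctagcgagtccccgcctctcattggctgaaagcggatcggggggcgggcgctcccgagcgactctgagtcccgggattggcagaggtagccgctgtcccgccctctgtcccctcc

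*Hmgcs1* was at 244, 382 and 220 CPM on the control diet and at 143, 71.2 and 93.3 CPM on ethanol, a log2 FC of -1.46 ± 0.303 (adjusted *P* = 0.0296). Downstream, bile acid synthesis had 3 members that fell and 2 that rose of 22 tested. *Cyp7b1*, of the alternative pathway, fell from 301 ± 35.7 to 47.2 ± 9.23 CPM (log2 FC -2.67 ± 0.171, adjusted *P* = 0.00075), and *Cyp27a1*, which starts that pathway, from 573 ± 19.9 to 309 ± 54.6 CPM. *Cyp39a1* rose from 13.6 ± 3.64 to 46.9 ± 8.1 CPM. *Cyp7a1*, the rate-limiting enzyme of the classical pathway, ranged from 36.5 to 217 CPM in the control livers and from 13.1 to 50.1 CPM in the ethanol livers, and the groups overlapped (adjusted *P* = 0.126). With any 1 control liver removed the number of bile acid genes that fell was 1.

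The serine synthesis and ATF4 list had 13 of 36 tested members that rose and 0 that fell, with a median log2 FC of 0.75. ATF4 is translated when the initiation factor eIF2α is phosphorylated and induces amino acid synthesis, amino acid transport and stress genes. Stress genes and serine enzymes were among those that rose. *Gdf15* (Entrez 23886, chromosome 8, 70629393 to 70632470), a secreted stress hormone, was at 4.37, 2.18 and 1.8 CPM on the control diet and at 31.6, 18.1 and 54.5 CPM on ethanol (log2 FC 3.65 ± 0.494, adjusted *P* = 0.0082). *Atf3* was at 0.699, 0.75 and 0.818 CPM and at 18.3, 5.07 and 5.05 CPM, and *Nupr1* rose from 0.849 ± 0.327 to 6.05 ± 2.69 CPM. The groups did not overlap in these 3 genes, and ethanol liver 1 was the highest in *Atf3* and *Nupr1*.

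The serine enzymes *Phgdh* and *Psat1* rose as well, *Psat1* from 0.613 ± 0.125 to 3.99 ± 1.53 CPM. *Phgdh* was low in every liver, at 0.153, 0.0536 and 0.0818 CPM on the control diet and 0.378, 0.636 and 0.478 CPM on ethanol. *Atf4* had 70.5 ± 10.8 and 119 ± 29.4 CPM and missed the threshold (adjusted *P* = 0.0589), as did *Fgf21*, a hormone of nutrient stress, with 12, 4.44 and 57.4 CPM on ethanol against 0.699 to 3.03 CPM (adjusted *P* = 0.0564). The asparagine synthetase *Asns* was not called, and of the aminoacyl-tRNA synthetases in the list only *Sars* rose. When control liver 1, 2 or 3 was removed, the number that rose was 3, 4 and 3, and without ethanol liver 1 or 3 it was 7 and 8.

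**Figure D3:**
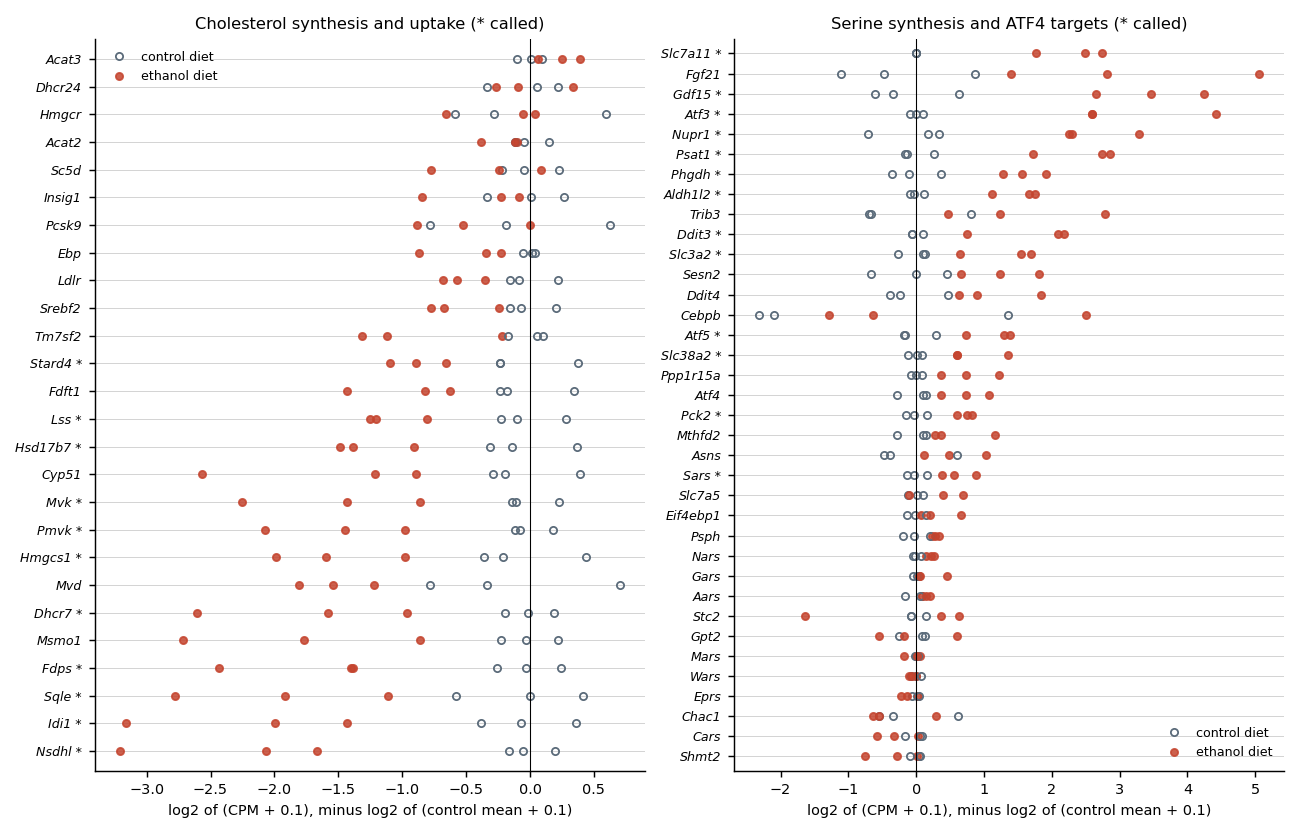
Left, the 26 tested genes of cholesterol synthesis and uptake, and right, the 36 tested genes of serine synthesis and the ATF4 list, each in the 6 WT livers as log2 of CPM plus 0.1 relative to the mean of the control livers. Open points are control livers, red points are ethanol livers and an asterisk marks a called gene. On the left 24 of 26 genes had a negative log2 FC, and on the right the aminoacyl-tRNA synthetases near the bottom stay close to 0.

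Other protein stress lists had few called members. Of 34 tested genes of the endoplasmic reticulum stress list *Ddit3*, the death-related factor CHOP, and *Dnajb9*, a cochaperone, rose and 0 fell. That is 5.88% called, below the 8.72% of all tested genes. The chaperone BiP, *Hspa5*, was at 372, 476 and 345 CPM on the control diet and at 244, 721 and 827 CPM on ethanol, so ethanol liver 1 was below and the other ethanol livers above all controls (adjusted *P* = 0.409). Without any 1 of the control livers 0 genes of this list were called, as without ethanol liver 3. Of 23 cytosolic heat shock genes *Hspb1*, *Bag3* and *Dnaja2* rose, and 22 of the 23 log2 FCs were positive with a median of 0.46. *Hspa1b* was at 162 CPM in ethanol liver 2 and between 12.5 and 44.8 CPM in the other 5 livers. Without ethanol liver 1 the number of heat shock genes that rose was 9, without control liver 1 or 3 it was 0, and without control liver 2 or ethanol liver 3 it was 1.

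Of 21 tested genes of the glucocorticoid response list, which includes the receptor *Nr3c1*, 9 rose, 0 fell and 12 were not called. The median log2 FC was 1.23, and without control liver 2 the number that rose was 5. *Tsc22d3*, a mediator of glucocorticoid action, was at 48.5, 36.7 and 42.3 CPM on the control diet and at 102, 95 and 135 CPM on ethanol (log2 FC 1.38 ± 0.167, adjusted *P* = 0.00546). *Zbtb16* rose from 11.5 ± 3.35 to 35 ± 7.01 CPM and *Gadd45b*, a growth arrest gene, from 1.08 ± 0.313 to 8.64 ± 1.61 CPM. *Tat*, which degrades tyrosine, rose from 474 ± 114 to 1116 ± 307 CPM. *Fkbp5*, another classical target, overlapped between the groups at 52.5 to 102 CPM and 75 to 108 CPM (adjusted *P* = 0.398), and the receptor *Nr3c1* had 59.8 ± 3.17 and 58.3 ± 2.28 CPM. Hydroxysteroid dehydrogenase *Hsd11b1*, which regenerates active glucocorticoid, rose from 309 ± 51.8 to 530 ± 53 CPM.

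Glucose metabolism had 12 of 38 tested members that rose and 1 that fell. *Pck1* (Entrez 18534, chromosome 2, 173153073 to 173159274) was at 1092, 1017 and 1307 CPM on the control diet and at 2948, 3010 and 3787 CPM on ethanol (log2 FC 1.51 ± 0.169, adjusted *P* = 0.00442). *Fbp1*, the next regulated step of gluconeogenesis, rose from 918 ± 57.4 to 1720 ± 157 CPM. *G6pc*, which releases free glucose, was at 684, 84.3 and 1019 CPM on ethanol against 88.9 to 187 CPM, with ethanol liver 2 below all controls, and was not called (adjusted *P* = 0.126). Genes of glycolysis and glycogen rose too, among them *Eno1* from 340 ± 30.2 to 720 ± 5.57 CPM and *Ppp1r3g*, a glycogen-targeting subunit of protein phosphatase 1, from 0.44 ± 0.131 to 8.45 ± 4 CPM. *Khk*, which phosphorylates fructose, rose from 293 ± 31.8 to 615 ± 72.1 CPM. *Pfkfb1*, which makes and degrades the glycolytic activator fructose 2,6-bisphosphate, fell from 48.1 ± 2.02 to 16.3 ± 4.77 CPM. In the fit lacking control liver 2 or 3 the number of genes that rose was 6, and it was 7 without control liver 1 or ethanol liver 3.

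Secreted regulators made by hepatocytes rose in 8 of 27 tested genes and fell in 0. *Lepr* (Entrez 16847, chromosome 4, 101717137 to 101815352), whose short forms are shed as the soluble leptin receptor, was at 3.43, 3.41 and 2.39 CPM on the control diet and at 41.8, 52.9 and 53.8 CPM on ethanol (log2 FC 4.01 ± 0.186, adjusted *P* = 0.000222). *Igfbp1*, which binds IGF1 and follows low insulin, was at 25, 11.2 and 12.8 CPM and at 344, 80.1 and 185 CPM. The groups did not overlap in either gene. Without control liver 1, 2 or 3 the number that rose was 5, 3 and 3. Of the clock genes, 3 of 22 rose and 1 fell. *Nfil3* rose from 10.2 ± 1.12 to 27.4 ± 1.7 CPM, and *Per1*, which glucocorticoids also induce, from 16.5 ± 5.33 to 41.1 ± 7.81 CPM, while *Dbp*, *Per2* and *Arntl* overlapped between the groups. When control liver 1 or 2 was removed, the number of clock genes that rose was 1.

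Lipid pathways differed in how many of their genes were called and in which direction. In de novo lipogenesis 4 of 26 tested genes rose and 3 fell, 26.9% called against 8.72% of all tested genes. The share was 21.6% for lipid droplets, 29.6% for apolipoproteins, 13.3% for fatty acid oxidation and 11.8% for ceramide metabolism. *Fasn*, the fatty acid synthase, had 859 ± 170 and 732 ± 139 CPM (adjusted *P* = 0.5) and *Acly* had 316 ± 66.6 and 238 ± 45.1 CPM (adjusted *P* = 0.241). *Srebf1*, the factor that induces them, fell from 320 ± 33.1 to 132 ± 46.1 CPM (log2 FC -1.27 ± 0.252, adjusted *P* = 0.0256). The desaturase *Scd1* was at 1117, 1256 and 2559 CPM on the control diet and at 3081, 5388 and 2649 CPM on ethanol, without overlap but with a wide spread (adjusted *P* = 0.11). *Elovl6*, which elongates palmitate, rose from 89.4 ± 11.4 to 202 ± 35.5 CPM, and *Elovl3*, a male-biased elongase, fell from 214 ± 21.5 to 16.2 ± 15.2 CPM. *Tkt*, of the pentose phosphate pathway, was at 140, 141 and 141 CPM and at 286, 277 and 278 CPM (log2 FC 0.99 ± 0.085, adjusted *P* = 0.00188). In the fit lacking control liver 1 or 2 the number of lipogenic genes that fell was 1.

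Fatty acid oxidation and ketogenesis had 6 of 45 tested members that rose and 0 that fell. PPARα is the factor that induces this pathway in fasting. *Cpt1a*, the entry step into mitochondria, had 582 ± 8.07 and 386 ± 89.8 CPM and was lower in every ethanol liver without passing the threshold (adjusted *P* = 0.0846). *Ppara* overlapped between the groups. The genes that rose were the thioesterases *Acot2*, *Acot3* and *Acot4*, the ω-hydroxylase *Cyp4a14*, *Pdk4*, which inhibits pyruvate dehydrogenase, and the coactivator *Ppargc1a*. *Pdk4* was at 3.01, 2.87 and 3.05 CPM on the control diet and at 11.9, 22.2 and 15.1 CPM on ethanol (log2 FC 2.46 ± 0.235, adjusted *P* = 0.00245). *Cyp4a14* was at 35.7, 66.1 and 5.03 CPM and at 490, 975 and 691 CPM, so the control livers spread more widely in proportion than the ethanol livers. Without control liver 1 the number of genes of this list that rose was 3.

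Genes of fatty acid uptake and lipid droplets rose in 6 of 37 tested and fell in 2. *Cd36*, a fatty acid transporter, was at 28.7, 22.7 and 26.8 CPM on the control diet and at 79.7, 126 and 91.3 CPM on ethanol (log2 FC 1.93 ± 0.186, adjusted *P* = 0.00263). *Vldlr*, a receptor for triglyceride-rich lipoproteins, rose from 1.49 ± 0.755 to 14.6 ± 4.56 CPM, and *Pparg* from 6.78 ± 1.63 to 15.9 ± 1.3 CPM. *Hsd17b13*, a lipid droplet enzyme of hepatocytes, rose from 267 ± 17.5 to 532 ± 133 CPM. *Fabp5* fell from 99.3 ± 6.94 to 4.92 ± 1.38 CPM and *Lipe*, the hormone-sensitive lipase, from 25.5 ± 3.16 to 12.8 ± 2.25 CPM. The droplet coat protein *Plin2* overlapped between the groups, with 388 ± 97.8 and 494 ± 143 CPM. In fits lacking any 1 control liver the number that rose was 3.

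In apolipoproteins and lipoprotein assembly 5 of 27 tested genes rose and 3 fell, and without any 1 of the control livers only 1 rose. *Apoa1* (Entrez 11806, chromosome 9, 46228630 to 46230469) was at 10849, 12246 and 12110 CPM on the control diet and at 5655, 3918 and 6993 CPM on ethanol (log2 FC -1.09 ± 0.237, adjusted *P* = 0.0346). *Apoa4*, from the same gene cluster (chromosome 9, 46240844 to 46243458), was at 164, 313 and 322 CPM and at 2068, 965 and 850 CPM, so the neighbours moved in opposite directions. *Apob* and *Mttp*, which are needed to assemble VLDL, had log2 FCs of -0.02 and 0.13 and were not called, and *Tm6sf2*, which helps to lipidate VLDL, rose from 22.2 ± 3.36 to 55.9 ± 11.4 CPM. The cholesterol exporter *Abca1* fell by 0.47 on the log2 scale and the receptor *Lrp1* fell from 1379 ± 89.1 to 826 ± 21.1 CPM. The number that fell was 1 without control liver 1 and 0 without control liver 2 or 3.

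Of 34 tested genes of ceramide and sphingolipid metabolism 4 rose and 0 fell. *Cers6*, a synthase of ceramides with palmitate, was at 15.6, 12.9 and 9.57 CPM on the control diet and at 30.7, 36 and 28.1 CPM on ethanol (log2 FC 1.32 ± 0.189, adjusted *P* = 0.00982). *Cers2*, which makes very-long-chain ceramides, had 262 ± 19.8 and 316 ± 20.4 CPM and was not called. *Sgms1*, a sphingomyelin synthase, rose from 10.1 ± 0.711 to 20.8 ± 1.6 CPM, and *Acer3*, a ceramidase, from 7.42 ± 0.961 to 11.5 ± 0.169 CPM. The entry enzyme subunit *Sptlc2* was higher in every ethanol liver and missed the threshold (adjusted *P* = 0.0899). With any 1 control liver removed 2 genes of the list rose. In phospholipid synthesis *Gpcpd1* was the only called gene of 38 and fell (log2 FC -1.40 ± 0.281), and *Pemt* overlapped between the groups. Without any 1 of the control livers 0 genes of that list were called.

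In amino acid catabolism and the urea cycle 4 of 42 tested genes fell and 1, *Tat*, rose, 11.9% called against 8.72% of all tested genes. *Ivd*, *Mccc2* and *Mut*, of the breakdown of leucine, isoleucine and valine, fell by log2 FCs of -0.97, -0.70 and -0.60, and *Cps1*, the first enzyme of the urea cycle, was lower in every ethanol liver, with 3685 ± 769 and 2314 ± 195 CPM (adjusted *P* = 0.0656). In the kynurenine pathway, which turns tryptophan into NAD, 3 of 18 tested genes fell and 0 rose. *Aadat* was at 139, 129 and 109 CPM on the control diet and at 43.1, 44.2 and 33.6 CPM on ethanol (log2 FC -1.64 ± 0.144, adjusted *P* = 0.00201). *Nadsyn1*, the last enzyme of NAD synthesis, fell from 26.7 ± 0.955 to 15.9 ± 0.685 CPM, and *Acmsd* from 14.5 ± 3.37 to 7.55 ± 0.491 CPM. The first enzyme *Tdo2* overlapped between the groups (adjusted *P* = 0.261). In fits lacking any 1 control liver, or without ethanol liver 3, 2 genes of amino acid catabolism fell.

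Of 34 tested genes of methionine, folate and methylation *Mat2a* and *Aldh1l2* rose and *Mtr*, the methionine synthase, fell. The called share of 8.82% was near the 8.72% of all tested genes. *Bhmt* was at 5642 CPM in ethanol liver 1 and at 1214 and 1349 CPM in the other ethanol livers, against 2880 to 3610 CPM on the control diet. *Mat1a* and *Gnmt* were not called. With any 1 control liver removed 0 genes of this list were called. In retinoid metabolism 5 of 25 tested genes rose and 4 fell. *Cyp26a1*, which degrades retinoic acid and is induced by it, was at 5.57, 4.36 and 4.72 CPM on the control diet and at 50.7, 41.3 and 89.4 CPM on ethanol (log2 FC 3.63 ± 0.306, adjusted *P* = 0.00184). *Lrat*, which esterifies retinol in stellate cells, rose from 17.2 ± 0.405 to 34.8 ± 11.3 CPM, and *Rdh11* fell from 37.4 ± 3.51 to 16.1 ± 6.42 CPM. When control liver 2 was removed, the retinoid list had 1 gene that rose and 0 that fell, without control liver 3 it had 1 of each, and without control liver 1 it had 2 of each.

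Many female-biased liver genes rose and many male-biased ones fell in these males on ethanol. Of 24 tested female-biased genes 15 rose and 0 fell, with a median log2 FC of 1.98, and of 26 male-biased genes 18 fell and 0 rose, with a median of -2.56. Another 7 of the 31 female-biased genes were below the filter on low counts, which genes such as *Cyp2b9* passed through the ethanol livers alone, so the female-biased count and median are descriptions of the genes that passed. Among genes with at least 10 counts in each of the 6 libraries 9 female-biased genes rose, with a median log2 FC of 1.42, and 17 male-biased genes fell, with a median of -2.48. In the fit lacking control liver 2 or 3 the number of female-biased genes that rose was 9 and 8. *Cyp2b9*, *Cyp2a4* and *Cyp2b13* had no read in any control liver, and their ethanol means of 578, 344 and 108 CPM were at least 9606-fold, 5723-fold and 1804-fold higher than the limit of 3 counts per library. The *Cyp2a* and *Cyp2b* genes have near-identical copies, so the split of reads among them and these bounds are uncertain. *Cyp2a5*, the copy of *Cyp2a4*, was at 461, 224 and 460 CPM in the control livers. The transporter *Slc22a27* rose from 0.106 ± 0.0931 to 3.64 ± 1.28 CPM. *Cux2*, a female-biased repressor, was higher in every ethanol liver at 0.812 to 2.29 CPM, against at most 0.611 CPM, but missed the threshold (adjusted *P* = 0.127). *Hsd3b5*, a male-specific steroid enzyme, was at 256, 241 and 252 CPM on the control diet and at 0, 0.143 and 0.605 CPM on ethanol. *Bcl6*, a male-biased repressor, overlapped between the groups, with control liver 3 at 11.1 CPM (adjusted *P* = 0.0728).

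The major urinary proteins, male pheromone carriers from a gene cluster on chromosome 4, fell in 17 of 21 tested genes and rose in 1. Together they took 11.4%, 9.30% and 10.2% of all counts in the control livers and 1.05%, 1.06% and 1.96% in the ethanol livers. This sum does not depend on how reads were split among the 21 genes. It can depend on reads shared with genes outside the list, such as *Gm2083*, which fell 8.7-fold, and such sharing was not tested. *Mup7* (Entrez 100041658, chromosome 4, 60066469 to 60070475) was at 23838, 13581 and 21145 CPM and at 352, 203 and 615 CPM. *Mup11* was called higher at 9.42 to 25.5 CPM against 4.61 to 5.35 CPM, next to family members that lost most of their reads, and was not called without any 1 of the control livers. The growth hormone axis itself showed 2 calls among 20 tested genes, *Prlr*, the prolactin receptor, and *Igfbp1*, both higher. *Ghr*, *Stat5b* and *Igf1* were not called, with log2 FCs of -0.46, -0.39 and -0.20. Without control liver 2 or 3 neither was called higher. The letters TTCNNNGAA of the STAT5 motif stood in 8.5% of the promoter windows of all tested genes, in 4 of 19 windows of female-biased genes (21.1%) and in 2 of 17 windows of male-biased genes (11.8%), and in 5 of 29 windows of NRF2 targets (17.2%).

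**Figure D4:**
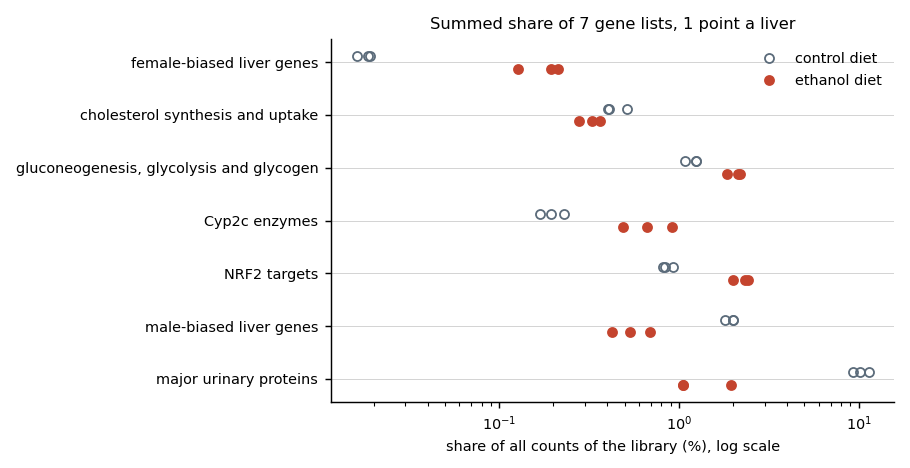
Summed share of all counts of a library, in percent on a log axis, for 7 gene lists in the 6 WT livers. Open points are control livers and red points are ethanol livers. The major urinary proteins drop from between 9.30% and 11.4% to between 1.05% and 1.96%, and the NRF2 targets rise from at most 0.932% to at least 2.00%. The groups do not overlap in any of the 7 lists, which were picked from the 59, so this describes these lists only. The male-biased genes and the major urinary proteins share members, as do the female-biased genes and the *Cyp2c* enzymes.

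Proteins of complement and coagulation, which the liver secretes, fell in 8 of 45 tested genes and rose in 0. *C6* and *C9* of the membrane attack complex were among them. *C6* (Entrez 12274, chromosome 15, 4727067 to 4804045) was at 304, 434 and 353 CPM on the control diet and at 13.6, 32.4 and 27.1 CPM on ethanol (log2 FC -3.90 ± 0.338, adjusted *P* = 0.00189). *F11*, coagulation factor XI, fell from 139, 121 and 109 CPM to 25.4, 15.6 and 31.9 CPM. *C3*, prothrombin (*F2*) and plasminogen (*Plg*) overlapped between the groups. The number that fell was 4, 3 and 3 without control liver 1, 2 or 3. In the acute phase list 1 of 34 tested genes rose and 1 fell, *Serpina3m* and *Saa4*, 5.88% called against 8.72% of all tested genes. The control livers differed strongly among themselves here, with *Saa1* at 31.5 CPM in control liver 1 and at 2571 and 2696 CPM in the other 2, against 31.8 to 82.3 CPM on ethanol, and *Hp*, haptoglobin, at 2604, 10038 and 7434 CPM.

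Genes of the cytoskeleton, annexins and galectins rose in 10 of 29 tested and fell in 0, and all 29 log2 FCs were positive with a median of 0.53. *Lgals1* (Entrez 16852, chromosome 15, 78926725 to 78930465), galectin 1, was at 11.2, 11.9 and 15 CPM on the control diet and at 51.9, 44 and 40.8 CPM on ethanol (log2 FC 1.84 ± 0.149, adjusted *P* = 0.00155). The tubulin *Tubb2a* rose from 38.4 ± 9.03 to 132 ± 31.4 CPM. The hepatocyte keratins *Krt8* and *Krt18* were higher in every ethanol liver and were not called (adjusted *P* = 0.059 and 0.191). Without any 1 of the control livers, or without ethanol liver 2, the number that rose was 4, and without ethanol liver 1 it was 6.

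Lysosomal genes rose in 6 of 57 tested and fell in 1, 12.3% called against 8.72% of all tested genes. Positive log2 FCs were seen in 51 of the 57, and the median was 0.20. *Cd63*, a membrane protein of late endosomes, was at 2.97, 5.03 and 5.52 CPM on the control diet and at 27.8, 22.1 and 24.5 CPM on ethanol (log2 FC 2.46 ± 0.232, adjusted *P* = 0.0024). *Hexa*, a subunit of β-hexosaminidase, rose from 50.2 ± 4.54 to 108 ± 16.1 CPM, and the protease *Ctsb* from 529 ± 28.1 to 853 ± 163 CPM. In the autophagy machinery 6 of 47 tested genes fell and 1 rose. *Wipi1*, which binds phosphatidylinositol 3-phosphate on forming autophagosomes, fell from 21 ± 3.45 to 7.23 ± 1.38 CPM (log2 FC -1.54 ± 0.179, adjusted *P* = 0.00497), and *Atg2a*, a lipid transfer protein, from 75.4 ± 11.2 to 39.5 ± 6.8 CPM. *Ulk1* (log2 FC -0.62, adjusted *P* = 0.123) and *Map1lc3b* (log2 FC -0.29, adjusted *P* = 0.0959) were lower in every ethanol liver than in every control liver and were not called. *Sqstm1*, the autophagy receptor p62 and itself an NRF2 target, was at 403, 387 and 365 CPM and at 885, 559 and 532 CPM, without overlap (adjusted *P* = 0.0584). In fits lacking any 1 control liver 3 lysosomal genes rose and 2 autophagy genes fell, and without ethanol liver 2 also 3 lysosomal genes rose.

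The subunits of protein phosphatase 2A (PP2A) and of AMP-activated kinase (AMPK), which PP2A dephosphorylates, were examined because the study addresses both. Of 20 tested PP2A genes 3 regulatory subunits rose and 0 fell. *Ppp2r2d* (Entrez 52432, chromosome 7, 138846350 to 138883057) was at 20.8, 20.4 and 18.9 CPM on the control diet and at 29.7, 28.5 and 26.5 CPM on ethanol (log2 FC 0.49 ± 0.0921, adjusted *P* = 0.0214). *Ppp2r5c* rose from 32.7 ± 0.948 to 44 ± 2.71 CPM and *Ppp2r2a* from 13.4 ± 0.778 to 17.7 ± 0.96 CPM. The groups did not overlap in these 3 genes, but 0 of the 20 genes were called without control liver 1, 2 or 3 or without ethanol liver 2, and 1 was called without ethanol liver 3. The catalytic subunit *Ppp2ca* had 98.6 ± 2.11 and 105 ± 1.34 CPM and was not called. Of 13 tested AMPK genes *Prkaa2*, the α2 subunit, rose from 45 ± 3.74 to 68.5 ± 12 CPM (log2 FC 0.60 ± 0.139, adjusted *P* = 0.041), and *Prkaa1* and the upstream kinase *Stk11* were not called. The called share of AMPK genes was 7.69%, near the 8.72% of all tested genes. With any 1 control liver removed 0 AMPK genes were called.

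Inflammatory genes rose in 4 of 30 tested and fell in 0, with a median log2 FC of 0.78. *Cxcl1*, which attracts neutrophils, was at 3.08, 4.93 and 3.05 CPM on the control diet and at 19.1, 27.1 and 13.8 CPM on ethanol (log2 FC 2.44 ± 0.299, adjusted *P* = 0.0058). *Ccl2*, which attracts monocytes, was at 0.611, 0.75 and 0.307 CPM and at 9.02, 8.27 and 1.27 CPM. *Tnf* and *Il1b* overlapped between the groups, with *Tnf* at 1.06, 1.21 and 0.175 CPM on ethanol. Ethanol liver 3 was the lowest ethanol liver in all 4 of these genes, and without it 14 genes of the list rose. When control liver 1 or 2 was removed, only 1 rose, and without control liver 3 it was 2. All 12 Kupffer cell markers were highest in ethanol liver 2. The summed Kupffer cell markers were at 636, 523 and 683 CPM on the control diet and at 494, 1158 and 477 CPM on ethanol, and edgeR called 0 of 12, with 0.0 at an unadjusted *P* value under 0.05 and 0.0 called by DESeq2. The summed level of the 9 monocyte and neutrophil markers was 60.1, 59.3 and 63.0 CPM and 75.7, 137 and 50.9 CPM, and most of it was *Lyz2*, at 57.1, 54.7 and 57.2 CPM and 64.3, 124 and 44.7 CPM. *S100a8*, *S100a9* and *Ccr2* were higher in every ethanol liver than in every control liver, of which edgeR called *S100a9*, at 0.72, 1.16 and 1.72 CPM and 4.83, 4.09 and 2.55 CPM. Of the 6 tested markers of this list 3 had an unadjusted *P* value under 0.05 and DESeq2 called 2. The part of these cells in the inflammatory list was not tested.

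Of 11 tested markers of stellate cells *Lrat*, *Dcn* and *Colec11* rose and 0 fell, with a median log2 FC of 0.30. *Des* and *Ngfr* were higher in every ethanol liver and were not called. The groups overlapped in *Ecm1*, *Reln*, *Pdgfrb*, *Rgs5*, *Hgf* and *Colec10*, with *Reln* at 58.8, 76.9 and 67.3 CPM and at 55.3, 63.5 and 65.9 CPM. The summed level of the 11 markers was 403 to 479 CPM on the control diet and 490 to 615 CPM on ethanol. *Colec11* was at 26.9, 30.8 and 33.5 CPM and at 48.9, 46.6 and 50.2 CPM. In the list of extracellular matrix and fibrosis 2 of 37 tested genes rose, *Dcn* and *Mmp14*, and *Col5a3* fell. The called share of 8.11% was near the 8.72% of all tested genes. Type I collagen *Col1a1* had 13.8 ± 5.78 and 17.3 ± 2.12 CPM and smooth muscle actin *Acta2* had 4.78 ± 0.475 and 4.58 ± 2.21 CPM, and both overlapped between the groups. Without any 1 of the control livers 0 matrix genes were called. Of 5 tested erythroid markers only *Alas2* was called, and it fell from 127 ± 21.4 to 33.8 ± 4.97 CPM. The median log2 FC of these 5 was -1.57. Of 9 tested markers of T and NK cells only *Cd4* was called, and it fell from 2.85 ± 1.26 to 0.622 ± 0.358 CPM. The median log2 FC of these 9 was 0.31, so the other markers did not fall with *Cd4* as a group. Among markers of B cells, cholangiocytes, sinusoidal endothelium and antigen-presenting cells edgeR called 0. DESeq2 called 2 of 7 for cholangiocytes and 2 of 6 for antigen-presenting cells, where 2 and 3 markers had an unadjusted *P* value under 0.05, and for B cells and sinusoidal endothelium both numbers were 0.

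**Figure D5:**
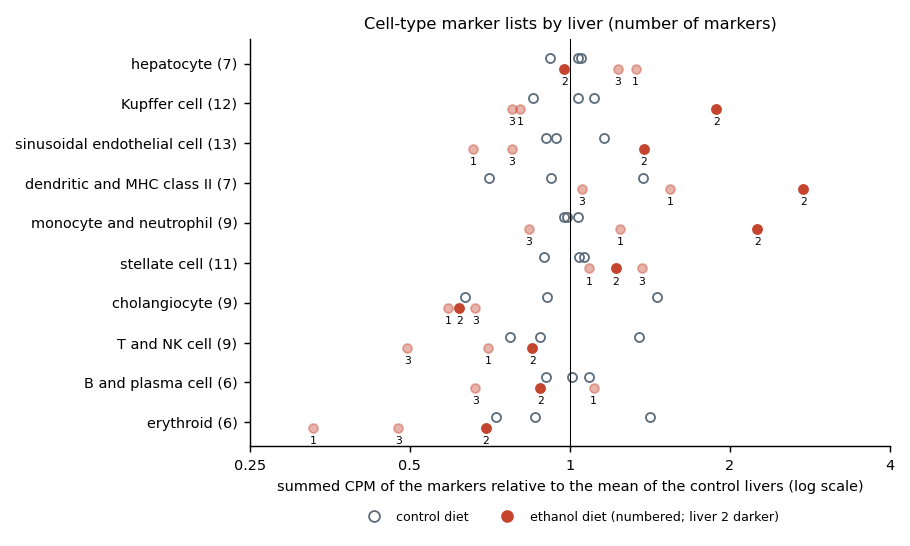
Summed CPM of the markers of each cell type in the 6 WT livers, relative to the mean of the control livers, on a log axis. Open points are control livers and red points are ethanol livers, numbered, with liver 2 darker. Ethanol liver 2 is the highest of all livers for Kupffer cells, sinusoidal endothelial cells, antigen-presenting cells and monocytes, while the other ethanol livers lie below all controls for Kupffer and endothelial cells.

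Several large gene groups of basic cell function held few or no called genes. Of 78 tested cytosolic ribosomal proteins edgeR called 0, 7 had an unadjusted *P* value under 0.05, and DESeq2 called 2 and limma on log2(FPKM + 1) 18, all higher. Of 39 proteasome subunits edgeR called 0, 7 had an unadjusted *P* value under 0.05, and DESeq2 called 2 and limma on log2(FPKM + 1) 9, all higher. Of 78 respiratory chain and ATP synthase subunits 1 was called, *Atp5sl*, which fell, and of 78 mitochondrial ribosomal proteins *Mrpl14* rose and *Mrps27* fell. DESeq2 called 2 higher and 2 lower in each of these lists, and limma on log2(FPKM + 1) called 10 higher respiratory genes and 12 higher mitochondrial ribosomal genes and 0 lower in either list. In the pyruvate dehydrogenase and TCA cycle list *Pdha1*, *Idh2* and *Pdk4* rose of 24, which is 12.5% against 4.24% of all tested genes. Without control liver 2 or 3, 1 gene of that list rose. Of 39 interferon-stimulated genes edgeR called 0, 6 had an unadjusted *P* value under 0.05, DESeq2 called 3 higher and 1 lower, and limma on log2(FPKM + 1) called 3 higher, and the median log2 FC was 0.02. Without ethanol liver 3 edgeR called 2 of them higher. Of 21 hypoxia genes edgeR called 0, 8 had an unadjusted *P* value under 0.05, and DESeq2 and limma on log2(FPKM + 1) each called 5 higher.

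Promoter windows of the called genes were searched for the binding letters of other factors in the same way. The core GCGTG of the AhR element stood in 53.6% of the windows of all tested genes, in 53.4% of those of called genes that were higher and in 52.4% of those that were lower. It stood in 2 of 19 windows of female-biased genes (10.5%) and in 5 of 17 windows of male-biased genes (29.4%), but in 20 of 29 windows of NRF2 targets (69.0%), 21 of 30 of the ATF4 list (70.0%) and 11 of 17 of cholesterol synthesis (64.7%). The letters TGATGNAAT of the element that ATF4 and C/EBP factors bind stood in 0.638% of all windows and in 4 of 30 windows of the ATF4 list, those of *Aars*, *Fgf21*, *Gars* and *Nupr1*, of which *Nupr1* was called. The E-box CACGTG, which clock factors and SREBP1 can bind, stood in 11.4% of all windows, in 14.8% of those of genes called higher and in 12% of those of genes called lower.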

How the data were processed

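Poly-A selected, stranded libraries of whole liver were sequenced in pairs. The submitters' processing notes name FastQC 0.11.7, Trimmomatic 0.38, HISAT2 2.1.0, Bowtie2 2.3.4.1, StringTie 1.3.4d and the build mm10, without their roles. The authors deposited 1 table with read counts, FPKM and TPM per gene for each liver; counts were used, FPKM deposited by the authors only in alternatives, and the deposited TPM values not at all. The number of columns of unknown sample was 0.

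Counts were scaled by TMM over all 12 libraries and filtered with filterByExpr, and the 6 WT libraries were fitted with the quasi-likelihood test of edgeR 4.0.16 in R 4.3.3, with Benjamini-Hochberg adjustment over 14038 genes. The fit was tested on simulated data. Livers of a group differed by a chi-square of 67.03 to 162.5 per gene, so none was a repeat of another. Alternatives used DESeq2 1.42.0, limma 3.58.1, upper-quartile or no factors, TMM of the 6 libraries, other filters, all 12 libraries, a replicate block, other thresholds and the removal of each liver. Gene lists and members were chosen with earlier results of these data known. The text names the leading known members of each list, up to 3 called genes with the largest rise and 3 with the largest fall at a mean of at least 1 CPM, the 8 largest gains and 8 largest losses of reads, and cell type markers. Values of some members of the lists are not reported here. Any other gene was chosen after its values were seen. Positions and promoters come from RefSeq (GRCm38), matched by Entrez identifier. Of read totals, 3 counts per library was taken as the limit of detection, for counting error only. Values were summarised with python 3.11.15 and pandas 2.3.3 and plotted with matplotlib 3.10.9.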

Additional observations from a re-analysis of the deposited data

How the results depend on the processing

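The counts of called genes depended on the tool, the scaling and the livers. Against 595 higher and 629 lower, DESeq2 called 1190 and 1145, library totals without factors 1198 and 430, limma on log2(FPKM + 1) 1631 and 406, limma on log2(FPKM + 0.1) 1058 and 333, and an adjusted *P* under 0.25 with a fold change above 1.5 gave 1029 and 947. The share of higher genes among the calls was 80.1% and 76.1% under limma with the larger and the smaller pseudocount, where the median log2 FC of all tested genes was 0.098 and 0.16. Leaving out 1 liver gave 183 to 444 higher and 177 to 567 lower genes, the fewest without control liver 2. With the replicate number as a block the counts were 284 and 255, and 507 of the 539 calls were also called without it. Livers of the same number did not deviate together (correlations of -0.02, -0.089 and -0.047), so the numbers pair nothing in these data. The median kept its sign in all alternatives for 38 of 59 lists.

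The log2 FC changed sign for a few named genes, of which only *Cyp2e1* was called. Without factors it was 0.101 for *Acta2*, 0.12 for *Apob*, 0.108 for *Glul* and 0.102 for *Nr3c1*. By limma with a pseudocount of 1 it was 0.022 for *Acta2*, 0.156 for *Apob*, 0.145 for *Glul*, 2.067 for *Hba-a2* and 0.121 for *Nr3c1*. By limma with a pseudocount of 0.1 it was 0.156 for *Apob*, 0.145 for *Glul*, 2.776 for *Hba-a2* and 0.132 for *Nr3c1*. With upper-quartile factors it was -0.007 for *Cat*. By limma on quantile-normalized values it was 0.27 for *Cyp2e1*, 1.862 for *Hba-a2*, 0.35 for *Hp* and -0.02 for *Slc10a1*. With the replicate block it was 0.395 for *Hba-a2*. When 1 liver was left out it ranged from -0.378 to 0.28 for *Acta2*, -0.074 to 0.052 for *Apob*, -1.288 to 0.159 for *Bhmt*, -0.09 to 0.229 for *C3*, -0.063 to 0.15 for *Cat*, -0.028 to 0.152 for *F2*, -0.109 to 0.022 for *Glul*, -0.903 to 0.593 for *Hba-a2*, -0.048 to 0.742 for *Lyz2*, -0.413 to 1.909 for *Mt1*, -0.064 to 0.008 for *Nr3c1* and -0.099 to 0.462 for *Per2*. Depth limits genes under a few counts per library, and 3 livers a group limit small changes.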

Other observations

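Carriers and zone markers gave values that belong to no pathway above. Of 272 tested solute carriers 18 rose (6.62%) and 9 fell (3.31%), against 4.24% and 4.48% of all tested genes, so their shares were near the background. Among them *Slc16a7*, a carrier of pyruvate and lactate, was at 21.5, 17.7 and 15.2 CPM on the control diet and at 73.6, 64.2 and 47.6 CPM on ethanol (log2 FC 1.77, adjusted *P* = 0.00407). *Slc13a5*, the citrate carrier, fell, with 1.55, 5.16 and 7.4 CPM and 0.604, 0.636 and 0.621 CPM. Of 16 tested markers of the pericentral zone 2 rose and 3 fell. *Rhbg*, an ammonium carrier of that zone, was at 8.75, 9.68 and 13.3 CPM and at 62.5, 40.7 and 33.7 CPM, while *Glul*, the glutamine synthetase of the same cells, overlapped between the groups. Of 15 periportal markers 2 rose and 0 fell.

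Of 50 tested histone genes 1 rose and 4 fell, and 39 log2 FCs were negative, with a median of -0.29. Libraries were made from polyadenylated RNA, which holds few replication-dependent histone transcripts. *H2afx* was the one that rose, and *Hist2h2aa1* fell from 33.2 ± 12 to 12.1 ± 0.618 CPM. Among 30 tested modifiers of DNA and chromatin 3 fell and 0 rose, *Dnmt3a*, *Hdac5* and *Tet3*, with log2 FCs of -0.51, -0.63 and -0.53, and 0 were called without any 1 of the control livers. In the cell cycle and p53 list *Mdm2* and *Trp53inp1* rose of 34, 5.88% called against 8.72% of all tested genes. *Cdkn1a*, the cell cycle inhibitor p21, was at 24.6, 7.3 and 3.2 CPM on ethanol against 1.61 to 3.19 CPM and was not called (adjusted *P* = 0.0907). The haemoglobin gene *Hbb-bt* was at 37.9, 35 and 77 CPM on the control diet and at 14.2, 36.4 and 0.0159 CPM on ethanol. Its near-identical copy *Hbb-bs* was at 173, 156 and 352 CPM and 78.7, 171 and 129 CPM, and *Hba-a1* and *Hba-a2* also traded levels in control liver 2, at 161 and 0.107 CPM, so the levels of single haemoglobin copies are uncertain. Genes of this section outside the naming rule were chosen after their values were seen.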
